A study of Mus musculus with 9 samples.

Results

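The LIM homeobox family was followed in 10 genes through whole genome bisulfite sequencing (WGBS) of mouse embryonic stem cells (ESCs): Lhx1, Lhx2, Lhx3, Lhx4, Lhx6, Lhx8, Lhx9, Isl1, Lmx1a and Lmx1b. They were taken by name, and they are 10 of the 14278 protein-coding genes in the part of the genome that the tables of all 3 genotypes list. For each gene, CpGs read 3 times or more in all genotypes were collected within 1 kb of the transcription start site (TSS), in the gene body and in the 10 kb on either side, which gave 8982 CpGs. The methylation level of a CpG is the number of methylated reads divided by all reads, and the level of a region is the mean over its CpGs.

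The cells were J1 ESCs of strain 129S4/SvJae, grown in serum with LIF on gelatin: wild type (WT), Dnmt3a knockout (Dnmt3a KO) and Dnmt3b knockout (Dnmt3b KO). Cells without Dnmt3a or without Dnmt3b below are these knockouts. Each genotype was sequenced as 3 biological replicate libraries, 9 in all, which the authors merged into 1 table per genotype. Each value below is therefore 1 pooled value per genotype without replicate error, and no test between genotypes was possible. Intervals are 95% Wilson intervals of the share of methylated reads, or intervals of a difference formed from them, and cover counting error only. DNMT3A and DNMT3B are the de novo methyltransferases, which place methyl groups on CpGs that carried none. Bisulfite treatment leaves methylated and hydroxymethylated cytosines unconverted and does not separate them.

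LIM homeobox genes encode transcription factors with a DNA-binding homeodomain and a pair of LIM domains, zinc-binding folds that recruit cofactors such as LDB1. They specify cell types of the nervous system, eye, limb, heart, kidney, gonad and pituitary, and fall into pairs of closely related genes: Lhx1 with Lhx5, Lhx2 with Lhx9, Lhx3 with Lhx4, Lhx6 with Lhx8, Isl1 with Isl2, and Lmx1a with Lmx1b. Developmental regulators of this kind are typically silent in ESCs, and their promoters lie in long CpG islands that are kept free of DNA methylation. Where such an unmethylated region is long, with methylation at its edges, it has been called a methylation canyon.

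The 3 tables listed 13882752 CpGs in WT, 20688369 without Dnmt3a and 20699170 without Dnmt3b. The WT table ended on chromosome 4 at position 140865857, and all 10 genes lay before that point. As a check of the labels, 12 consecutive CpGs of the Dnmt3a gene had no read in Dnmt3a KO ESCs, where the longest such run was 5 CpGs in both other genotypes. Within Dnmt3b, 30 consecutive CpGs had no read in Dnmt3b KO ESCs, and every one of its 526 CpGs was read in WT and in Dnmt3a KO ESCs. At the LIM homeobox genes the median depth was 14 to 23 reads per CpG, and 91.8% to 98.6% of the reference CpGs of a locus had 3 reads in every genotype.

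Sequences of 300 bp, from 4 members, show the kinds of sequence involved. They are given 5′ to 3′ on the strand of the gene, which is the minus strand in each case, from mm9, with CpGs in capitals. The stretches at Lhx6 and Lhx3 lie just beyond the 3′ edge of the WT low-methylation stretch, moved past exonic sequence before the coding start, and stand for the gene with the largest lengthening in Dnmt3a KO ESCs and for the 1 gene whose stretch was shorter there. The Lhx3 promoter is shown because its TSS window was the most methylated in WT. The Lhx9 edge and the upstream island of Lmx1b were chosen after their values were seen. The Lhx9 edge had a lower level in Dnmt3a KO ESCs, and the Lmx1b island was the most methylated island of these genes in WT.
Lhx6 intron 1, chr2:35960344-35960643, 285 to 584 bp downstream of the TSS: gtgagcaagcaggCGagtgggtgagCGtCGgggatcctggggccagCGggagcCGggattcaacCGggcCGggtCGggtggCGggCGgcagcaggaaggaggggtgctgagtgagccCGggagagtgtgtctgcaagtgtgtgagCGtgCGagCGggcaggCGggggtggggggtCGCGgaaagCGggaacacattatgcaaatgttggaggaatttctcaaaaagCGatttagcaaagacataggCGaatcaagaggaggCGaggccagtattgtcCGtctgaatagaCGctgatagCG
Lhx9 intron 1, chr1:140737637-140737936, 1098 to 1397 bp downstream of the TSS: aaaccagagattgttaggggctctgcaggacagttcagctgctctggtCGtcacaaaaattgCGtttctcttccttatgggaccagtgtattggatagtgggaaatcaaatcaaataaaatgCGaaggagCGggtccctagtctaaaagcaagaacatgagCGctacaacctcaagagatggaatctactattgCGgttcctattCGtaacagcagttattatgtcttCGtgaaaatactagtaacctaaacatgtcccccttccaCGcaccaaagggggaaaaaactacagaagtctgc
Lhx3 exon 1 and intron 1, chr2:26061659-26061958, 137 to 436 bp downstream of the TSS: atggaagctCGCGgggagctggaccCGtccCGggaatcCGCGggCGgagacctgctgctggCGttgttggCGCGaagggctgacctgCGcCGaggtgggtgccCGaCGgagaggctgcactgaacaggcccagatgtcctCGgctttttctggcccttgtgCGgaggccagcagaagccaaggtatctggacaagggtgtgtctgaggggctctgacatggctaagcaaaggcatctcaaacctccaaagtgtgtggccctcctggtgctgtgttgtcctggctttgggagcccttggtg
Lhx3 promoter, chr2:26062096-26062395, the 300 bp before the TSS: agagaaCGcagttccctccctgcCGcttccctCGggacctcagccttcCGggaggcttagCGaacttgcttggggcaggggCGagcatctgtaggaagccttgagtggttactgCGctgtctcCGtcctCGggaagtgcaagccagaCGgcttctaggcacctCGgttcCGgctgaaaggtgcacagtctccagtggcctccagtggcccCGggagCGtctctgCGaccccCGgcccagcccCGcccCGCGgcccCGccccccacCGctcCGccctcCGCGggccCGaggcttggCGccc
Lmx1b upstream island, chr2:33499493-33499792, -3761 to -3462 bp from the TSS: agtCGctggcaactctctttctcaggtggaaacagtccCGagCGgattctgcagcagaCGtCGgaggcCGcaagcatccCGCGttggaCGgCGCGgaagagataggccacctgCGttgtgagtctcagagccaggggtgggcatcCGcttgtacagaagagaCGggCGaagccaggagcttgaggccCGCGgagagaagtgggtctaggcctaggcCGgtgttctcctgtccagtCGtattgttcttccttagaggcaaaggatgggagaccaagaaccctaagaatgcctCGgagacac

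The TSS windows of the LIM homeobox genes were nearly free of methylation in every genotype for most members. The median over the 10 genes was 3.98% in WT, 0.819% without Dnmt3a and 2.19% without Dnmt3b, where all protein-coding genes had medians of 18.1%, 5.05% and 12.6%. The windows were rich in CpGs, with a median of 123 and a range of 74 to 187, against a median of 64 over all genes.

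In WT, Lhx1 had 0.869%, Lhx4 0.908% and Lhx2 1.36% in the TSS window, and the intervals of neighbours in this order overlapped. Lmx1b with 1.96%, Lhx9 with 3.29% and Isl1 with 4.67% followed, again with overlapping intervals of neighbours when ordered by read share. Above these stood 4 genes, each with an interval apart from its neighbours: Lhx6 with 9.82%, Lhx8 with 13.5%, Lmx1a with 19.2% and Lhx3 with 36.7%. These are levels at the main starts, and other starts had other levels in WT. Those of Lhx6 had 9.84% and 5.64%, those of Lhx8 4.28% and 2.87%, and that of Lmx1a 10.8%. The other start of Lhx3 had 48.7% and that of Lmx1b 5.75%. Some starts of Lhx1, Lhx2, Lhx3 and Lhx9 are given below. At the main starts relatives could differ, one nearly unmethylated and the other partly methylated. Examples were Lhx4 and Lhx3, which act together in the pituitary and in motor neurons, and Lmx1b and Lmx1a.

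Dnmt3a KO ESCs had lower levels than WT in the TSS window of all 10 genes, as did 98.6% of all protein-coding genes. Lhx6, a regulator of cortical interneurons, had 9.82% in WT, 1.26% without Dnmt3a and 7.75% without Dnmt3b. Isl1, which acts in motor neurons, heart and pancreas, had 4.67%, 0.586% and 2.82% in the same order. Lhx8, a regulator of forebrain cholinergic neurons and of oocytes, had 13.5%, 4.86% and 11.2%. In these 3 genes the Dnmt3b KO value lay between the others. It was nearer to WT, except that by read share Lhx8 had 16.7%, 5.43% and 8.80%.

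Lhx3 kept the highest level in each genotype, with 36.7% in WT, 20.6% without Dnmt3a and 29.6% without Dnmt3b. Lmx1a, which acts in midbrain dopaminergic neurons and the roof plate, had 19.2%, 6.72% and 12.6%. In both windows the methylated CpGs had more reads than the others, so that the share of methylated reads was higher than the mean over CpGs, at 57.2% (54.9% to 59.5%) for Lhx3 and 31.1% (28.7% to 33.7%) for Lmx1a in WT. In the unmethylated core of Lmx1a only 4.56 reads per CpG were counted in WT.

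The interval of the difference between Dnmt3a KO and WT lay below 0 for 9 of the 10 TSS windows, beside 95.5% of all genes, the exception being Lhx4, which had 0.908% in WT and 0.572% in Dnmt3a KO ESCs. In Dnmt3b KO ESCs it lay below 0 for 6 genes, beside 74.2% of all, and included 0 for Lhx1, Lhx4, Lhx9 and Isl1. No TSS window lay more than 20 percentage points under WT in either knockout. Over all protein-coding genes 41.3% were lower by that much in Dnmt3a KO ESCs and 2.63% in Dnmt3b KO ESCs. Of the 10 members 9 were under 20% in WT, so that Lhx3 alone could have passed that limit by the mean over CpGs. By read share Lhx3 and Lmx1a passed it in Dnmt3a KO ESCs, with differences of -29.1 and -20.5 percentage points, beside 44.4% of all genes.

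**Figure D1:**
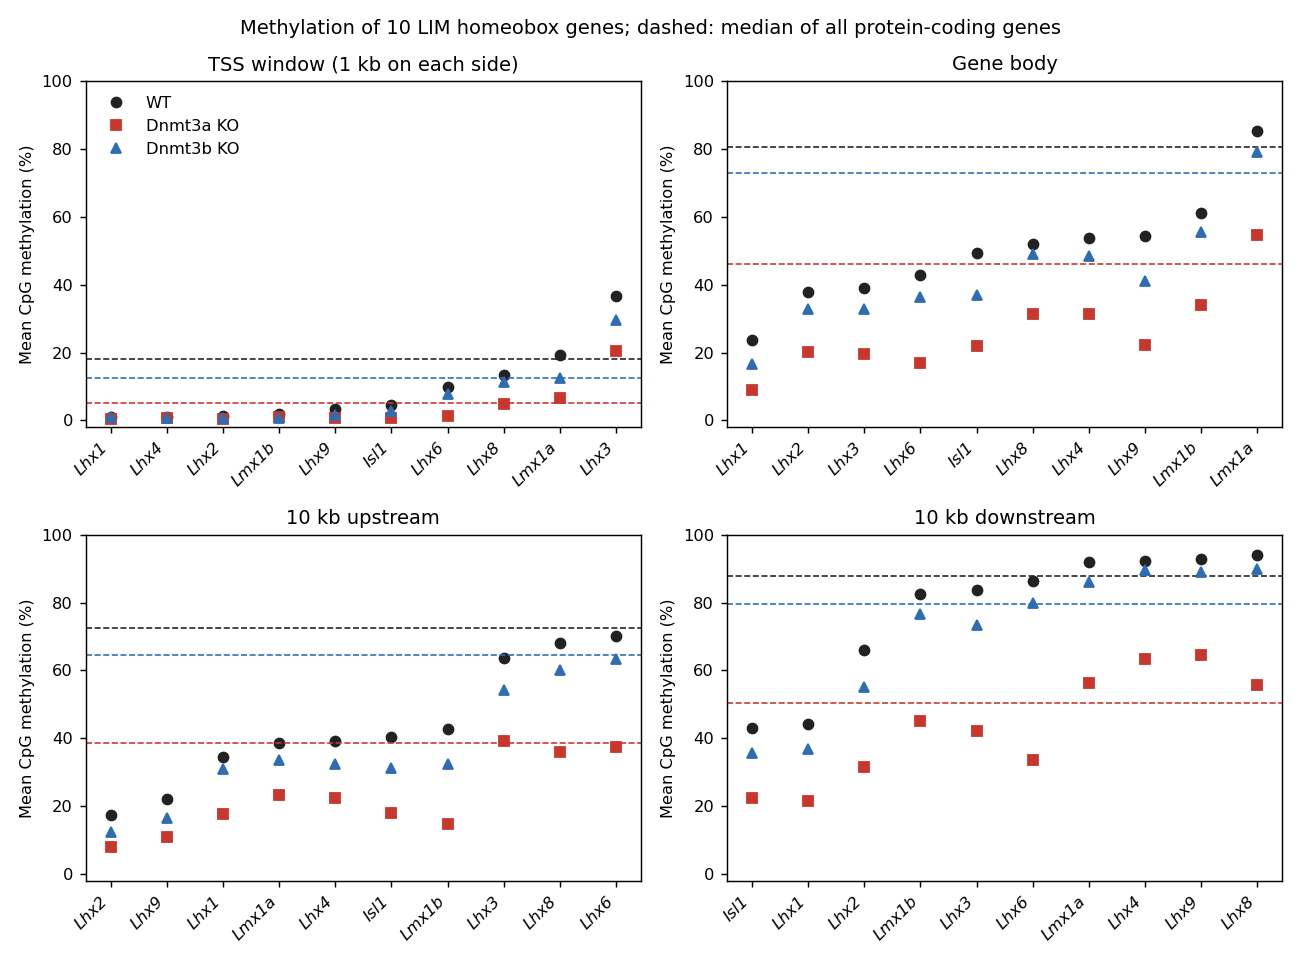
Mean CpG methylation in percent (vertical axis) of the 10 genes, ordered by their WT level, in the TSS window, gene body and 10 kb flanks; circles are WT, squares Dnmt3a KO and triangles Dnmt3b KO, 1 pooled value each without error bars, and dashed lines are medians of all protein-coding genes. In the bodies and flanks the squares lie lowest for every gene and the triangles lie between the squares and the circles.

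Away from the TSS the same genes carried methylation in WT and had much less of it in Dnmt3a KO ESCs. Median gene body methylation was 50.8% in WT, 22.1% without Dnmt3a and 39.0% without Dnmt3b, against 80.4%, 46.1% and 72.9% over all genes. The members kept a median of 51.9% of their WT body level in Dnmt3a KO ESCs and 85.9% in Dnmt3b KO ESCs.

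Lhx1, needed for the head organizer and the kidney, had the least methylated body, with 23.8% in WT, 8.82% without Dnmt3a and 16.5% without Dnmt3b. Lmx1a, the longest of the genes, had the most methylated body, with 85.2%, 54.7% and 79.1%. Lhx9, which acts in gonad formation, had 54.3%, 22.2% and 41.1%, the largest body difference from WT in both knockouts by the mean over CpGs. By read share Lmx1a differed as much in Dnmt3a KO ESCs, at -32.0 percentage points beside -31.8 for Lhx9 with overlapping intervals, and in Dnmt3b KO ESCs Isl1 had -12.7 beside -10.6. By read share in WT, neighbours overlapped among Lhx2, Lhx3 and Lhx6 and among Isl1, Lhx4, Lhx9 and Lhx8, whereas Lhx1, Lmx1b and Lmx1a stood apart.

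In Dnmt3a KO ESCs 7 of the 10 bodies lay more than 20 percentage points under WT, beside 89.3% of all genes. The others were Lhx1, Lhx2 and Lhx3, with differences of -15.0, -17.5 and -19.5 percentage points from WT levels of 23.8%, 37.8% and 39.0%. By read share 9 of 10 bodies passed, Lhx1 being the exception, beside 91.6% of all genes. In Dnmt3b KO ESCs 0 of 10 bodies and 1.24% of all genes passed that limit.

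Upstream, the 10 kb flanks had medians of 39.8% in WT, 20.3% without Dnmt3a and 32.5% without Dnmt3b, where all genes had 72.5%, 38.7% and 64.6%. Lhx2, which acts in eye and forebrain, had the lowest upstream flank, with 17.3%, 7.90% and 12.4%, and Lhx9, its closest relative, had 22.3%, 10.9% and 16.5%; their WT intervals by read share overlapped. Lmx1b, which patterns the dorsal limb, went from 42.8% in WT to 14.9% in Dnmt3a KO ESCs and had 32.6% in Dnmt3b KO ESCs. Of the 10 upstream flanks 5 were lower by more than 20 percentage points in Dnmt3a KO ESCs, against 88.8% of all genes, and 0 of 10 in Dnmt3b KO ESCs, against 0.385%. The Dnmt3a KO count was 6 by read share, against 92.4%, and 8 without the CpGs within 1 kb of the TSS, against 94.5%.

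Downstream flanks resembled those of other genes more closely. Their medians were 85.03%, 43.6% and 78.3%, and all genes had 87.8%, 50.4% and 79.7%. Lhx6 had the largest difference of any region, from 86.3% in WT to 33.6% in Dnmt3a KO ESCs, with 79.8% in Dnmt3b KO ESCs. Isl1 and Lhx1 stood apart with 43.2% and 44.3% in WT, where the other 8 genes had 66.1% to 94.0%. All 10 downstream flanks were lower by more than 20 percentage points in Dnmt3a KO ESCs, beside 92.9% of all genes, and 0 of 10 in Dnmt3b KO ESCs, beside 0.456%. By read share the Dnmt3a KO count was 9, beside 94.8%, since Isl1 had a difference of -19.2 percentage points.

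In bodies and both flanks the interval of the difference between the knockouts lay below 0 for all 10 genes, with Dnmt3a KO the lower, as in 97.7% of all bodies, 99.8% of upstream and 99.9% of downstream flanks. The interval between Dnmt3b KO and WT lay below 0 for all 10 bodies and upstream flanks and for 9 downstream flanks, Isl1 being the exception, beside 91.7%, 92.5% and 95.9% of all genes. In the TSS window the knockouts were apart in 7 genes, beside 83.9% of all, and their interval included 0 for Lhx2, Lhx4 and Lmx1b, each of which was under 1% in both.

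CpGs were then classed by their WT level, taking CpGs of 10 reads or more. The 3815 CpGs of these genes at 80% or more in WT averaged 94.4% in WT, 55.9% without Dnmt3a and 85.1% without Dnmt3b. The 8424555 such CpGs of all 3 tables averaged 94.6%, 58.5% and 86.2%. Among CpGs at 10% to under 80% in WT, the 1486 at these genes went from 48.1% to 21.1% without Dnmt3a and 39.6% without Dnmt3b, and the 1530499 in all from 62.3% to 34.5% and 60.4%. The 1501 CpGs under 10% in WT had 1.22% in WT, 1.43% without Dnmt3a and 2.20% without Dnmt3b, and the 548045 in all 0.806%, 0.638% and 1.34%. The WT means of the classes under 80% thus differed between these genes and all CpGs, so that their knockout values are not compared at equal WT level. These classes were set by the WT reads themselves, so that chance in WT enters each class mean.

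Over all 8982 CpGs, the share at 80% or more was 50.6% in WT, 9.59% without Dnmt3a and 40.5% without Dnmt3b. The share under 10% was 27.9%, 39.7% and 32.0%. The share between these limits in Dnmt3a KO ESCs ran from 31.4% at Lhx1 to 68.1% at Lmx1a. Lhx1 had the smallest share of CpGs at 80% or more, at 22.4%, 2.36% and 15.6%, and Lmx1a the largest, at 76.4%, 17.9% and 64.1%.

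Single CpGs were called hypomethylated where the 95% credible interval of the difference from WT lay beyond 0.2. In Dnmt3a KO ESCs 1871 of 9044 CpGs of these genes were called, or 20.7%, beside 25.6% of all CpGs tested. In Dnmt3b KO ESCs it was 193 of 9046, or 2.13%, beside 2.14%. Lhx6 had the largest share in Dnmt3a KO ESCs, at 26.5%, and Lhx1 the smallest, at 14.3%. By region, 3.14% of CpGs were called in TSS windows, 16.9% upstream, 20.5% in bodies and 27.7% downstream in Dnmt3a KO ESCs. In Dnmt3b KO ESCs it was 0.525%, 2.31%, 2.05% and 2.28%. A CpG could be called only with a WT level over 20%, and the TSS windows had a median of 3.98% in WT. Shares by region over all genes were not computed.

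Gains were rare. Only 1 CpG was called hypermethylated in Dnmt3a KO ESCs, in the Lhx3 promoter at base 130 of the sequence shown, where 1 of 10 reads was methylated in WT, 7 of 9 in Dnmt3a KO and 0 of 15 in Dnmt3b KO ESCs; over all CpGs tested 0.00703% were so called. In Dnmt3b KO ESCs 6 CpGs were called, 2 of them at Lhx3 and 1 each at Lhx1, Isl1, Lmx1a and Lmx1b, beside 0.069% of all. One of the Lhx3 pair is base 162 of the Lhx3 exon and intron sequence, where 12 of 24 reads were methylated in WT, 11 of 23 in Dnmt3a KO and 15 of 15 in Dnmt3b KO ESCs.

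The unmethylated stretch at the TSS was measured as the run of CpGs whose running mean over 5 CpGs stayed under 10%. All 10 genes had one in every genotype, whereas 5359 of the 14278 protein-coding genes had none in WT. Its median length was 1261 bp in WT, 2613 bp without Dnmt3a and 1751.5 bp without Dnmt3b, and 493, 1035 and 687 bp over all genes, those without a stretch counted as 0.

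In WT the longest was at Lhx1 with 2973 bp, followed by Lhx8 with 2637 bp and Lhx4 with 2479 bp, and the shortest was at Lhx3 with 234 bp. In Dnmt3a KO ESCs it was longer in 9 of 10 genes, beside 95% of all genes with a WT stretch, and in Dnmt3b KO ESCs in 8 of 10, beside 86.1%. Lhx1 went from 2973 bp to 4168 bp in Dnmt3a KO ESCs and was 2209 bp in Dnmt3b KO ESCs. Lhx9 had 1320, 2971 and 1876 bp, Isl1 1175, 2174 and 1627 bp, and Lmx1b 1202, 2291 and 2335 bp. Lhx2 had similar lengths, with 1926, 2232 and 2172 bp.

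A length of at least 3.5 kb, the limit the study's methods set for a canyon, was reached by no member in WT, by Lhx1 in Dnmt3a KO ESCs and by none in Dnmt3b KO ESCs. The study found such regions with a hidden Markov model and not with this running mean, so these counts are not canyon calls. With runs joined, as given below, Lhx1 reached 3.5 kb in WT. Over all genes it was reached by 0.413%, 4.21% and 1.12%. Lhx6 fell just short in Dnmt3a KO ESCs with 3482 bp. Stretches at least 1.5 times as long as in WT were seen at 5 of 10 genes in Dnmt3a KO ESCs, beside 60.7% of genes with a WT stretch, and at 4 of 10 in Dnmt3b KO ESCs, beside 23.5%.

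**Figure D2:**
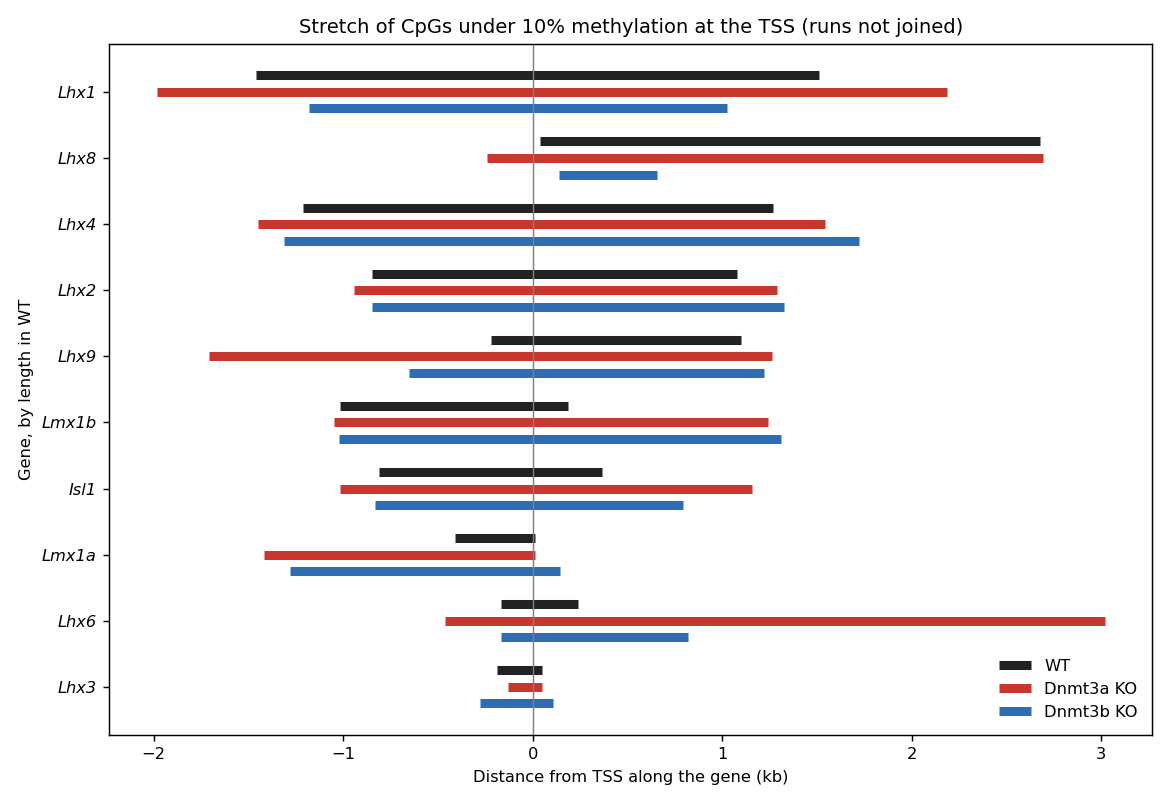
Extent of the stretch under 10% methylation at each TSS (horizontal axis, kb from the TSS along the gene; vertical axis, genes by WT length), with 1 bar per genotype and no joining of neighbouring runs. The Dnmt3a KO bar is the longest of the 3 at Lhx1, Lhx2, Lhx6, Lhx8, Lhx9 and Isl1, and at Lhx6 it extends from 462 bp upstream to 3019 bp downstream.

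Some of these lengths rest on few CpGs. At Lhx6 the WT stretch of 408 bp was ended 240 bp downstream by a few partly methylated CpGs, such as those 257 and 260 bp downstream with 27.3% and 22.7%, and the Lhx6 sequence shown, which lies past that end, had 4.05% in WT, 0.189% without Dnmt3a and 1.67% without Dnmt3b. Of its 24 CpGs 20 had no methylated read in WT, and the highest, at base 118, had 6 of 11 reads methylated in WT and 0 of 12 and 0 of 26 in the knockouts. At Lhx8 the stretch of 518 bp in Dnmt3b KO ESCs, against 2637 bp in WT, followed from a break near the limit. With a limit of 20% it was 2956 bp, against 2988 bp in WT. At this gene Dnmt3b KO was longer than WT in 0 of the 9 settings. At Lhx9 the WT length ran from 426 to 2858 bp over the 9 settings tried, and with a running mean over 9 CpGs it was 2648 bp, against 3139 bp in Dnmt3a KO ESCs. The order with WT changed with the setting at Lhx3, where Dnmt3a KO was longer than WT in 4 of 9, and at Lhx4, where it was in 8. Dnmt3b KO was longer than WT in 5 of 9 settings at Lhx1, 6 at Lhx2, 7 at Lhx6 and 8 at Lhx4 and Lhx9.

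When runs less than 500 bp apart were joined, the picture was more even. The Lhx6 lengths became 2850 bp in WT, 3665 bp without Dnmt3a and 2966 bp without Dnmt3b, and those of Lhx8 2917, 3426 and 2554 bp. Joined, only 1 of 10 genes in each knockout was at least 1.5 times as long as in WT, where unjoined runs gave 5 and 4, beside 56.5% and 13.4% of all genes with joined runs. Joined lengths had medians of 2597, 3368.5 and 2657.5 bp, and all 10 genes were longer in Dnmt3a KO than in WT, beside 99.3% of all, by a median of 1.30 times, and 8 in Dnmt3b KO ESCs, beside 89.8%, by a median of 1.10 times. Lhx1 reached 3.5 kb in all genotypes, with 3655, 5139 and 5473 bp. Lmx1b did so in the knockouts only, with 2437, 4650 and 4179 bp, and Lhx6 in Dnmt3a KO ESCs only. The share of all genes at 3.5 kb with joined runs was not computed, so these cases cannot be set against it.

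Beyond the WT edges the next 2 kb carried methylation in most cases, the exceptions under 10% in WT being the downstream sides of Lhx6 with 5.36% and Lmx1b with 7.68% and the upstream side of Lhx9 with 5.30%. On the downstream side the median was 43.3% in WT, 15.0% without Dnmt3a and 33.8% without Dnmt3b, and on the upstream side 28.8%, 12.9% and 21.4%. Inside the WT stretch it was 1.17%, 0.485% and 0.595%. The edges were placed by the WT reads themselves, so that chance in WT enters the levels on either side of them.

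Upstream of Lhx4, 19 CpGs averaged 56.4% in WT, 10.7% without Dnmt3a and 28.7% without Dnmt3b. The upstream side of Isl1 had 64.8%, 23.6% and 52.7%, and its downstream side 50.6%, 12.8% and 32.1%. Downstream of Lhx9 the values were 54.2%, 17.3% and 35.5%. Where a flank was already low it stayed low, as on the upstream side of Lhx9 with 5.30%, 1.85% and 4.04%.

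The Lhx9 sequence above shows such an edge CpG by CpG. Over its 9 CpGs the mean was 43.9% in WT, 8.89% without Dnmt3a and 20.9% without Dnmt3b, with read shares of 42.0% (34.6% to 49.9%), 9.57% (6.14% to 14.6%) and 22.1% (16.9% to 28.2%). The CpGs at bases 49 and 63 had at most 1 methylated read in any genotype. From base 123 on the WT level lay between 25% and 78.6% at every CpG, and the Dnmt3a KO level was lower at each of them. At base 131, 13 of 22 reads were methylated in WT, 0 of 16 in Dnmt3a KO and 2 of 20 in Dnmt3b KO ESCs.

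**Figure D3:**
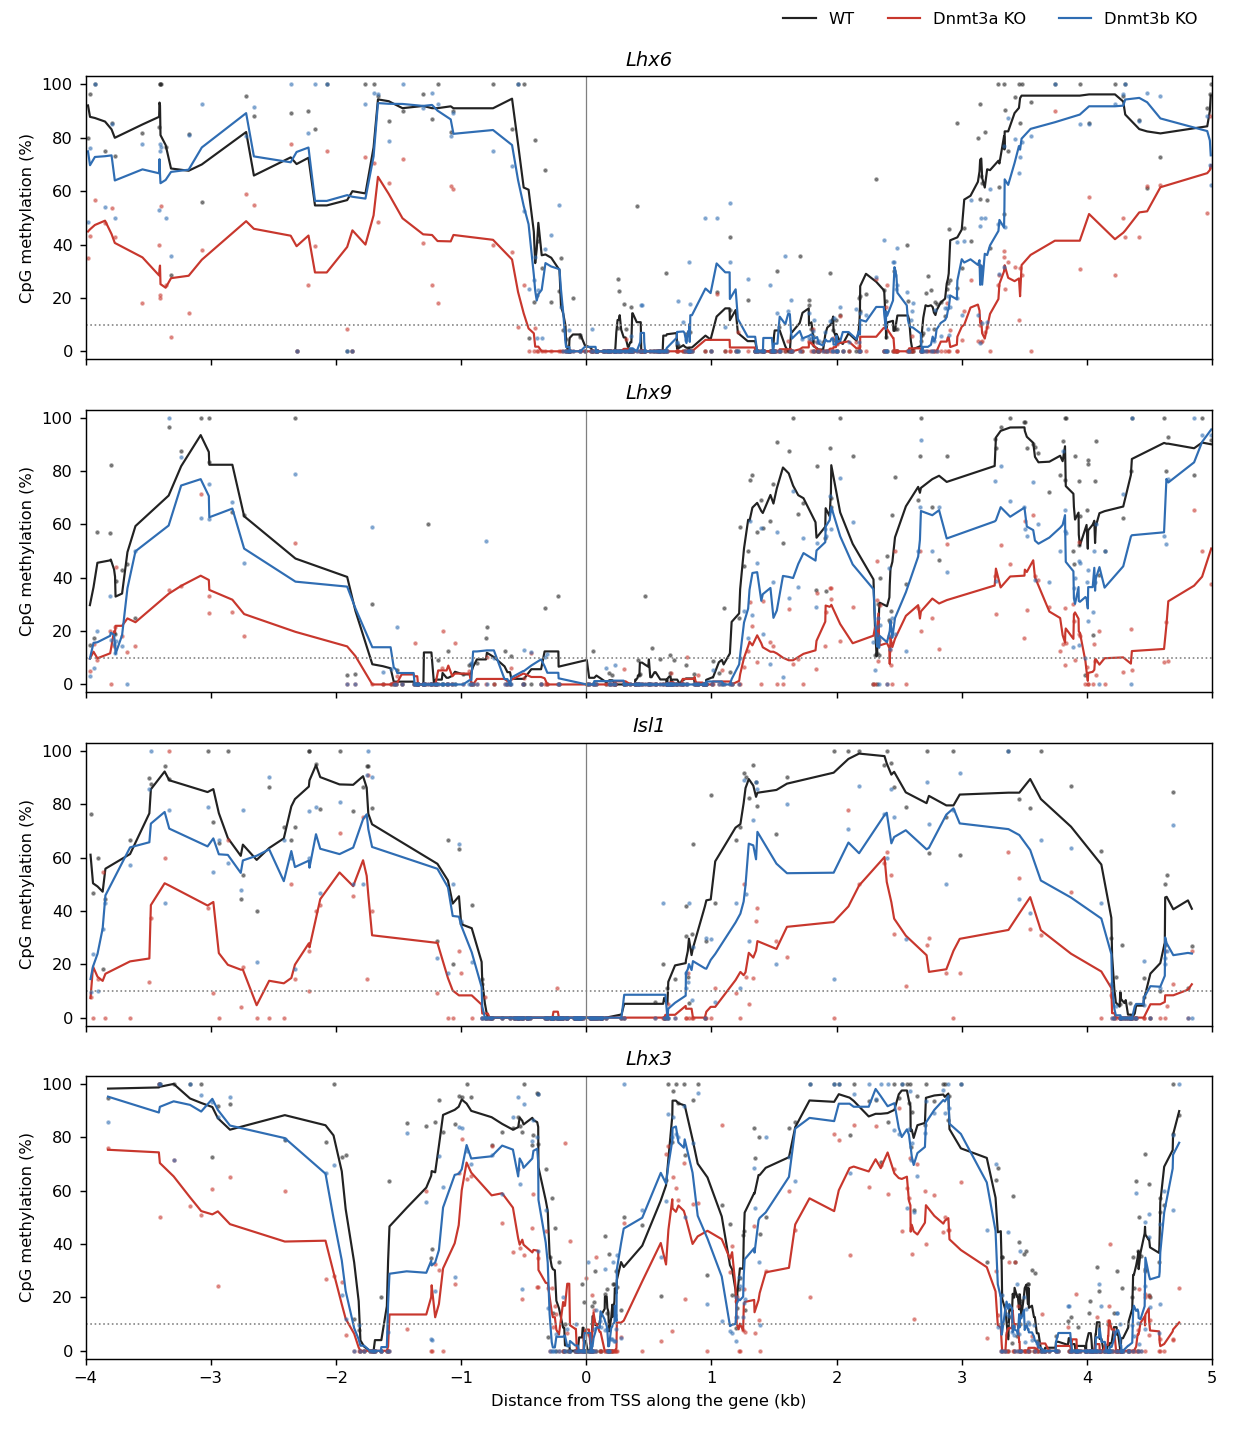
CpG methylation in percent (vertical axis) against distance from the TSS along the gene in kb (horizontal axis) at Lhx6, Lhx9, Isl1 and Lhx3; dots are single CpGs, lines are running means over 5 CpGs, and the dotted line marks 10%. The 3 lines lie together near 0 around the TSS and separate at the edges, with Dnmt3a KO lowest at Lhx6, Lhx9 and Isl1, while the low region at the TSS of Lhx3 is narrow in every genotype and Dnmt3b KO is lowest just upstream of it.

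Lhx3 had the shortest stretch in WT and the only one that was shorter in Dnmt3a KO ESCs in the main setting. Its stretch of 234 bp in WT, 182 bp without Dnmt3a and 385 bp without Dnmt3b lay in a CpG island of 963 bp that had 21.4%, 10.9% and 15.2% as a whole. The promoter sequence had 9.97% in WT, 8.99% without Dnmt3a and 1.86% without Dnmt3b over 24 covered CpGs, so that the Dnmt3b KO level was the lowest there. Its read shares were 13.1% (9.61% to 17.6%), 10.7% (7.66% to 14.8%) and 2.21% (1.01% to 4.73%), and the WT and Dnmt3a KO intervals overlapped. The 300 bp downstream turned the order round, with 20.03%, 3.30% and 15.3% over 16 CpGs, of which 4, 14 and 4 had no methylated read. At the Lhx3 TSS the lower level therefore lay in different places in the knockouts, at 11 to 19 reads per CpG and without replicates. Dnmt3b KO was also the lower knockout in the Lmx1b TSS window, with 0.736% beside 0.936%, where the interval between the knockouts included 0.

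CpG islands of at least 500 bp were then followed through the loci. The 10 genes and their flanks held 40 islands, 12 of them within 1 kb of a TSS. The 28 islands away from the TSS had medians of 6.98%, 2.01% and 5.11%.

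A few islands were methylated in WT. The most methylated lay upstream of Lmx1b, at chr2:33499212-33500074, inside an exon of the non-coding RNA gene C130021I20Rik on the opposite strand, and had 83.9% in WT, 20.3% without Dnmt3a and 63.0% without Dnmt3b. In the Lmx1b sequence shown, from the middle of this island, the 20 CpGs averaged 83.6%, 12.1% and 56.1%. Every one had at least 56.7% in WT, and 9 of 20 had no methylated read in Dnmt3a KO ESCs. An island of 554 bp just downstream of the Lmx1a TSS had 65.1%, 19.3% and 45.2%, whereas the island before the TSS, in the same window, had 2.39%, 0.935% and 0.399%. An island in the body of Lhx6, 10784 to 11496 bp from the TSS, had 36.9%, 3.78% and 16.1%.

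Islands inside other bodies ranged from low to partly methylated in WT. Lhx2, for instance, held islands 3045 and 5029 bp downstream of its TSS with 7.55% and 5.32% in WT, 1.37% and 2.85% in Dnmt3a KO and 5.19% and 5.16% in Dnmt3b KO ESCs, and another 17357 bp downstream with 25.5%, 6.0% and 9.60%. One in Lmx1a, 2191 bp downstream, had 23.1%, 6.07% and 17.4%. One in Lhx4, 3801 bp downstream, had 2.65%, 0.580% and 0.632%. Lhx3 held a longer island in its body than at its TSS, 1736 bp from 3036 bp on, with 16.0%, 3.66% and 10.1%.

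Alternative starts, placed by their distance from the main TSS, had values of their own. Lhx9 also starts at -5122 and -6119 bp, in a stretch of 1480 bp in WT, 2811 bp without Dnmt3a and 2838 bp without Dnmt3b. A start of Lhx2 at -12027 bp had a TSS window with 3.29%, 1.93% and 2.87%. The TSS window of the other Lhx3 start, at -1674 bp, was partly methylated like the main one, with 48.7%, 20.5% and 30.7%. Close to this start, however, the covered CpGs from -1804 to -1641 bp had 0% in every genotype. The stretch at this start was 169 bp in WT, 273 bp without Dnmt3a and 263 bp without Dnmt3b. For Lhx1 a start 2710 bp downstream had 29.1%, 12.1% and 19.1%, where the main one was under 1% in each genotype.

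Around the TSS, the low methylation of these genes reached farther to both sides than in the median gene. In the bin 1 to 2 kb downstream the median over the 10 genes was 21.3% in WT, 9.79% without Dnmt3a and 16.6% without Dnmt3b, and over all genes 84.7%, 37.5% and 72.2%. The rise was uneven over these few genes, with 61.5%, 17.8% and 46.00% at 3 to 4 kb downstream and 32.2%, 14.0% and 24.98% at 4 to 5 kb, where all genes had 90.9%, 50.9% and 83.2% and then 91.1%, 51.8% and 83.3%. On the upstream side the members were also low at 1 to 2 kb, with 26.2%, 8.70% and 17.2% against 88.2%, 45.04% and 79.2%, and came nearer to other genes beyond that, with 77.0%, 35.3% and 65.7% at 2 to 3 kb and 90.0%, 50.9% and 81.2% at 5 to 6 kb.

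**Figure D4:**
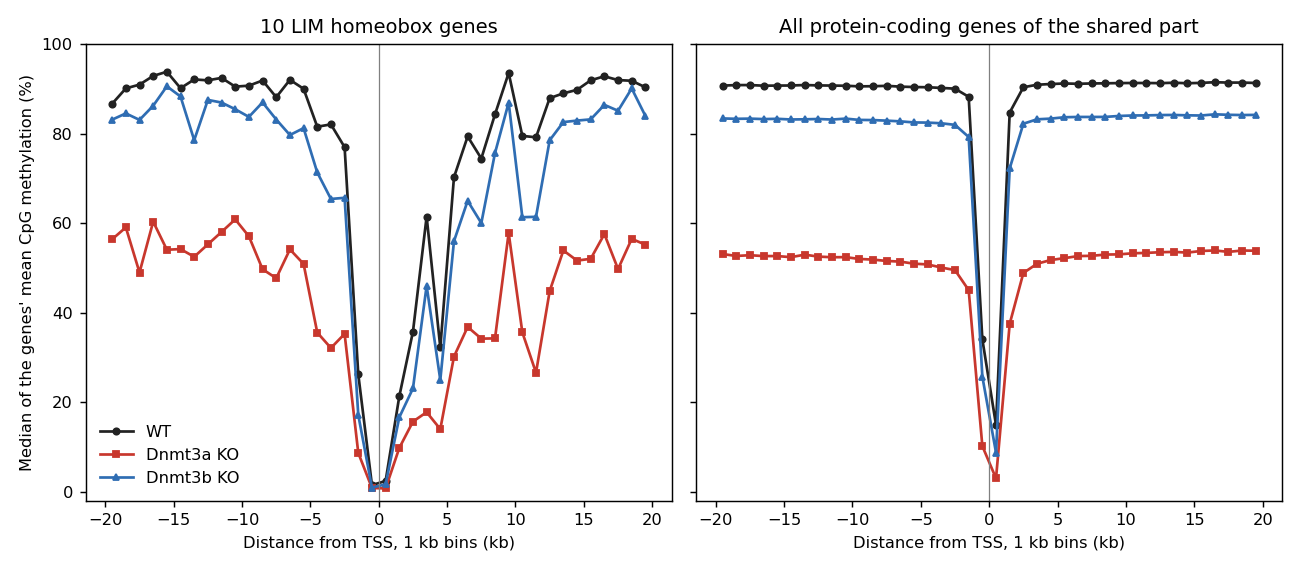
Median over genes of the mean CpG methylation in percent (vertical axis) in 1 kb bins by distance from the TSS in kb (horizontal axis), for the 10 LIM homeobox genes and for all protein-coding genes of the chromosomes shared by the 3 tables. The dip around the TSS is wider in the LIM homeobox genes, with an uneven course in WT of 61.5% at 3 to 4 kb and 32.2% at 4 to 5 kb, where all genes have 90.9% and 91.1%.

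The remaining relatives and the cofactors gave a range of patterns. Lhx5 and Isl2 lie on chromosomes 5 and 9, which the WT table did not reach. They had 0.616% and 3.37% at the TSS in Dnmt3a KO and 1.49% and 4.86% in Dnmt3b KO ESCs. Their stretches were 2443 and 1515 bp in Dnmt3a KO and 1649 and 874 bp in Dnmt3b KO ESCs. Their bodies had 2.97% and 3.62% in Dnmt3a KO and 6.25% and 8.22% in Dnmt3b KO ESCs. The lowest body levels among the 10 members were 8.82% and 16.5%. Ldb1, the main LIM-binding cofactor, had a stretch of 1248 bp in WT, 3993 bp without Dnmt3a and 1446 bp without Dnmt3b. Lmo4, a LIM-only protein gene, was already at 4392 bp in WT and had 4659 and 4451 bp in the knockouts. Lmo2, Ssbp2 and Ssbp3 had 1120, 1349 and 2313 bp in WT and 1930, 2206 and 3092 bp in Dnmt3a KO ESCs. Among those without WT values, Ldb2 and Lmo3 had no stretch in either knockout and TSS levels of 34.6% and 66.1% in Dnmt3a KO and 66.4% and 86.0% in Dnmt3b KO ESCs. Lmo1 had 780 and 1131 bp in Dnmt3a KO and Dnmt3b KO ESCs, Ssbp4 4781 and 832 bp, and Rlim, which encodes a ligase acting on LDB1, 3529 and 2394 bp.

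By the mean levels of the regions, other genes lay near the members' medians. Across 12 values per gene, the levels of 4 regions in 3 genotypes, the genes nearest to the members' medians by Euclidean distance were Taf9, Topors, Gchfr, Pnn and Ovol2, at 9.97 to 10.9 percentage points. The members themselves lay at a median distance of 49.9 from these medians. Of the 13756 genes with all 12 values, 1711 other genes lay nearer than that. Because the members were widely scattered around these medians, the comparison cannot show whether the profile is particular to the family. Stretch lengths and levels by distance from the TSS did not enter this comparison.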

How the data were processed

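The data were WGBS of J1 ESCs of 3 genotypes (WT and a knockout of Dnmt3a or Dnmt3b), 3 libraries each, merged by the authors. The authors aligned reads to mm9 with BSMAP, removed end-repair bases, clonal reads and overlapping mates with BSeQC, and deposited the counts of methylated and of all reads per CpG made with the mCall module of MOABS, without normalization. Of the deposited rows 0 lay off a CpG of mm9 and 0 had more methylated than total reads. The last, incomplete WT row was left out.

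Genes were protein-coding GENCODE genes of the same build, with the isoform of longest spliced length. CpGs needed 3 reads in every genotype, or in the genotype measured for stretches, and regions 5 CpGs. Stretches were runs of CpGs with a running mean over 5 CpGs under 10%, broken at gaps over 1000 bp, at or within 1 kb of the TSS. CpG calls used the 95% credible interval of the difference of Beta posteriors, with counts over 200 scaled down. CpG islands had at least 500 bp, 55% GC and an observed over expected ratio of 0.65. On simulated data for chromosome 19, 95.7% of 186 planted stretches had both edges within 3 CpGs, with lengths understated at a median of 0.855 of the planted length. Of 2393 CpGs planted at 85% and 20%, 79.6% were called. The planted stretches had a uniform low level and sharp edges, and those with few CpGs or long gaps were left out. Stretches broken by partly methylated CpGs, as at Lhx6, were not simulated.

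Python 3.11.15, NumPy 2.4.6, SciPy 1.17.1, pandas 2.3.3, numba 0.67.0 and matplotlib 3.10.9 were used. All 10 listed members, the fixed list of relatives and cofactors, the 5 nearest genes and the edge and promoter sequences were named by rule; the Lhx9 and Lmx1b sequences and the islands named were chosen after their values were seen. The members and lists were chosen with earlier results of these data known. Intervals are Wilson intervals, and reads of 1 fragment are not independent.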

Additional observations from a re-analysis of the deposited data

How the results depend on the processing

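No paired analysis was possible because the 3 libraries of each genotype were merged before deposit, and for the same reason no library could be left out. With 1 pooled value per genotype, differences between genotypes cannot be told apart from differences between cultures or libraries, and bisulfite data hold no expression. All 38 median differences from WT under the alternative settings were below 0, from -35.7 to -1.38 percentage points. Lengths of single genes did change order with WT, in Dnmt3a KO ESCs at Lhx3 and Lhx4 and in Dnmt3b KO ESCs at Lhx1, Lhx2, Lhx4, Lhx6 and Lhx9.

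Median differences over the members moved as follows, in percentage points from WT. In the main setting Dnmt3a KO had -3.34 at the TSS, -24.0 in the body, -19.6 upstream and -35.1 downstream. Dnmt3b KO had -1.79, -6.26, -6.73 and -6.33 in the same order. With at least 10 reads per CpG, Dnmt3a KO had -2.70 at the TSS, -26.8 in the body and -26.5 upstream, and Dnmt3b KO -2.53 at the TSS, -6.99 in the body and -5.37 downstream. With reads as weights, Dnmt3a KO had -27.0 in the body and -26.4 upstream, and Dnmt3b KO -8.01 in the body, -10.4 upstream and -5.42 downstream. Thinned to 10 reads, Dnmt3a KO had -2.80 at the TSS and Dnmt3b KO -7.09 downstream. With the isoform starting farthest 5′, Dnmt3a KO had -22.9 in the body, -23.5 upstream and -34.2 downstream. Without CpGs within 1 kb of the TSS it had -26.5 in the body and -29.4 upstream, and Dnmt3b KO -7.85 upstream. Members lower by more than 20 percentage points in Dnmt3a KO ESCs at the TSS numbered 0 in the main setting, beside 41.3% of all genes, and 2 with weights, beside 44.4%. They numbered 2 with 10 reads and 1 with the 5′ isoform, where shares of all genes were not computed. Upstream they numbered 5, beside 88.8%, and 8 without the TSS CpGs, beside 94.5%.

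Stretches with a limit of 20% had medians of 2239.5 bp in WT and 2691 bp in Dnmt3b KO ESCs, and joined runs 2597 and 2657.5 bp. Members at 3.5 kb or more in Dnmt3a KO ESCs numbered 0 with a running mean over 3 CpGs or thinned reads, 5 with a limit of 20% and 3 with joined runs; in Dnmt3b KO ESCs 1 with a running mean over 9 CpGs, 2 with 20% and 2 joined; in WT 1 joined. Hypomethylated CpGs in Dnmt3a KO ESCs were 2895 beyond 0.1 and 3466 by Fisher's exact test with Benjamini-Hochberg adjustment. In Dnmt3b KO ESCs they were 85 at 99%, 485 beyond 0.1 and 327 by Fisher's exact test. All counts by Fisher's exact test needed an adjusted p under 0.05 and a difference of levels beyond 0.2. Hypermethylated CpGs were 0 at 99%, 0 with 10 reads, 5 beyond 0.1 and 18 by Fisher's exact test in Dnmt3a KO ESCs, and 1 at 99%, 43 beyond 0.1 and 22 by Fisher's exact test in Dnmt3b KO ESCs. Shares of all genes at 3.5 kb and of all CpGs called were not computed under these settings, so these counts cannot be set against them. The cause of these shifts was not tested.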
